A study of Sus scrofa with 4 samples.

Results

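OSR1, OSR2, TWIST1, TWIST2, SNAI1 and SNAI2 are DNA-binding regulators of mesenchymal cells, described here in sorted lung cells of pigs. The members were chosen by gene name, with earlier results of the same GFP-HI against GFP-NEG comparison in view, in which OSR2 was among the genes most raised in GFP-HI. Rows were found for 5 of the 6 members among 29263 genes in the count tables. OSR1, OSR2, SNAI1 and SNAI2 carry their symbol there, and TWIST2 was matched through its Ensembl identifier ENSSSCG00000016343. No row could be matched to TWIST1, so it has no value.

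Bulk RNA sequencing was done on 4 libraries from lung of pigs with the genotype LGR5-H2B-GFP knock-in, in which green fluorescent protein fused to histone H2B reports LGR5, a receptor for the Wnt-amplifying R-spondins. Cells were sorted by fluorescence into a bright group, GFP-HI, and a group without signal, GFP-NEG, each with 2 biological replicates, and both groups carry the knock-in. H2B fusions are long-lived, so the reporter can outlast transcription of its gene. No treatment is labelled. The protocol text covers adult and fetal animals together, and the only mention of adult pigs is in the name of the authors' comparison table. The titles call the replicates biological and say no more about the animals behind them.

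The OSR genes encode odd-skipped-related zinc finger proteins, which in vertebrate embryos act in the mesoderm around the foregut, upstream of signals that specify the lung. The TWIST genes encode basic helix-loop-helix (bHLH) proteins, which bind E-box DNA in pairs with E proteins and are held back by ID proteins. The SNAI genes encode zinc finger repressors that also bind E-boxes and silence epithelial genes such as CDH1 (E-cadherin) during epithelial-mesenchymal transition (EMT).

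The GFP-HI libraries held 24200550 and 24689986 counts and the GFP-NEG libraries 6292253 and 7045652, while genes with a count numbered 18752 and 18392 against 24120 and 25985; depth differed with the group and the 2 cannot be told apart. LGR5 had 3218 and 3073 counts in GFP-HI against 10 and 7 in GFP-NEG. Fibroblast markers (6 of 6 found, none at 0) summed to 62846 and 55091 CPM (counts scaled to a common library total) in GFP-HI. The same sum was 19659 CPM in GFP-NEG replicate 1 and 6766 CPM in GFP-NEG replicate 2. COL1A1 and COL1A2 were its largest parts and did not pass in the fit across all genes (adjusted p under 0.05, edgeR). Their log2 fold changes were 1.88 and 1.79, with large standard errors of 1.53 and 1.76, and both GFP-HI libraries lay above both GFP-NEG libraries. The other 4 markers passed as higher in GFP-HI. For PDGFRA the log2 fold change was 3.53, and it fell to 2.83 without GFP-NEG replicate 2. The immune list (8 of 8) summed to 999 to 1490 CPM in GFP-HI and 3910 to 6230 in GFP-NEG, and the endothelial list (6 of 6) to 174 to 175 and 543 to 1275. The epithelial list (6 of 6) summed to 126 to 191 CPM in GFP-HI and 116 to 404 in GFP-NEG. Its largest part was SFTPC, at 81.9 and 170 CPM in GFP-HI and 301 and 62.0 CPM in GFP-NEG. GFP-NEG replicate 1 stood apart from replicate 2 by 7.52 times the chondrocyte sum (6 of 6 markers, 6722 against 894 CPM) and 7.04 times the smooth muscle and pericyte sum (6 of 6, 2173 against 309 CPM). In GFP-HI those sums were 125 to 285 CPM and 1522 to 2138 CPM. The smooth muscle and pericyte sum there was mostly ACTA2 (751 and 1706 CPM) and PDGFRB (704 and 387 CPM). In the same fit PDGFRB passed as higher in GFP-HI, and MYH11, DES and RGS5 passed as lower. Of the mesothelial markers 1 of 5 had a row, WT1, at 0 counts in both replicate 1 libraries and at 2 and 24 counts in GFP-HI and GFP-NEG replicate 2. In such bulk samples fewer cells of a type and less RNA per cell cannot be told apart.

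The 5 measured genes fell into 3 kinds. OSR2 and TWIST2 were many times higher in GFP-HI than in GFP-NEG, OSR1 and SNAI2 were moderately higher in GFP-HI, and SNAI1 was high in every library and somewhat lower in GFP-HI. Since the choice of genes used this comparison, the values below are a description and carry no test. In the fit across all genes (edgeR, adjusted p-value under 0.05), OSR1, OSR2 and TWIST2 were on the called side, 3 of 5, where 36% of all 19682 tested genes were called and 8.35% were called higher. None of the 5 was called lower, as 27.6% of tested genes were. Nothing is read from that count.

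OSR2 had 7197 and 5698 counts in GFP-HI against 61 and 26 in GFP-NEG. Scaled to depth with TMM factors, this is 326 and 282 CPM in GFP-HI and 9.47 and 2.85 CPM in GFP-NEG. Both GFP-HI libraries stood far above both GFP-NEG libraries, with no overlap. The mean was 304 ± 30.8 CPM against 6.16 ± 4.68 CPM (SD, n = 2 each), a log2 fold change of 5.64 with a standard error (SE) of 0.73. Within replicate 1 OSR2 was 34.4-fold higher in GFP-HI and within replicate 2 it was 99.1-fold higher, a gap set by the GFP-NEG side, where the libraries differed 3.32-fold. In rank it was gene 8 of all tested genes by log2 fold change.

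OSR1, its paralogue, gave a different picture. It had 1586 and 624 counts in GFP-HI against 168 and 90 in GFP-NEG, or 71.9 and 30.9 CPM against 26.1 and 9.87 CPM. With TMM scaling the groups did not overlap, but the lower GFP-HI library lay only just above the higher GFP-NEG library. Their 95% Poisson counting intervals, 28.6 to 33.5 and 22.3 to 30.3 CPM, overlapped. By library size alone the groups overlapped, with OSR1 at 25.3 CPM in GFP-HI replicate 2 and 26.7 CPM in GFP-NEG replicate 1. The replicates differed by 2.32-fold within GFP-HI and 2.64-fold within GFP-NEG, in both cases with replicate 1 higher. Within a replicate the GFP-HI to GFP-NEG ratio was steadier, at 2.75-fold and 3.14-fold. The log2 fold change was 1.52 (SE 0.53), and it was 0.84 without GFP-HI replicate 1 and 0.98 without GFP-NEG replicate 2, each on the uncalled side of the threshold.

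TWIST2 had 544 and 543 counts in GFP-HI against 13 and 5 in GFP-NEG. This is 24.6 and 26.9 CPM against 2.02 and 0.548 CPM, again with no overlap and with close agreement between the GFP-HI libraries. The log2 fold change was 4.37 (SE 0.73), gene 31 by rank. Its GFP-NEG level was below that of all but 5.77% of tested genes. With so few counts there, the 95% counting intervals ran from 1.07 to 3.45 CPM and from 0.178 to 1.28 CPM, which overlap, and the fold was 12.2 in replicate 1 and 49.1 in replicate 2.

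SNAI1 had 4681 and 4792 counts in GFP-HI against 2201 and 2488 in GFP-NEG, or 212 and 238 CPM against 342 and 273 CPM. It was lower in both GFP-HI libraries than in either GFP-NEG library, by 1.61-fold within replicate 1 and 1.15-fold within replicate 2. The log2 fold change of -0.45 was smaller than its SE of 0.65. Its size depended on the scaling: by library size alone the levels were 193 and 194 CPM in GFP-HI and 350 and 353 CPM in GFP-NEG, and the log2 fold change was -0.87. SNAI1 ranked above 98.0% of tested genes by mean CPM in GFP-NEG and above 95.9% in GFP-HI, so the transcript was abundant on both sides of the sort.

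SNAI2, which encodes the repressor also called Slug, had 322 and 234 counts in GFP-HI against 57 and 15 in GFP-NEG. The levels were 14.6 and 11.6 CPM against 8.85 and 1.64 CPM, so that both GFP-HI libraries lay above both GFP-NEG libraries while the GFP-NEG libraries differed from each other by 5.38-fold. The log2 fold change was 1.34 (SE 0.71), on the uncalled side. It moved to 1.70 with the replicate number as a block and to 2.99 without GFP-NEG replicate 1, both on the called side, and to 0.56 without GFP-NEG replicate 2.

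**Figure D1:**
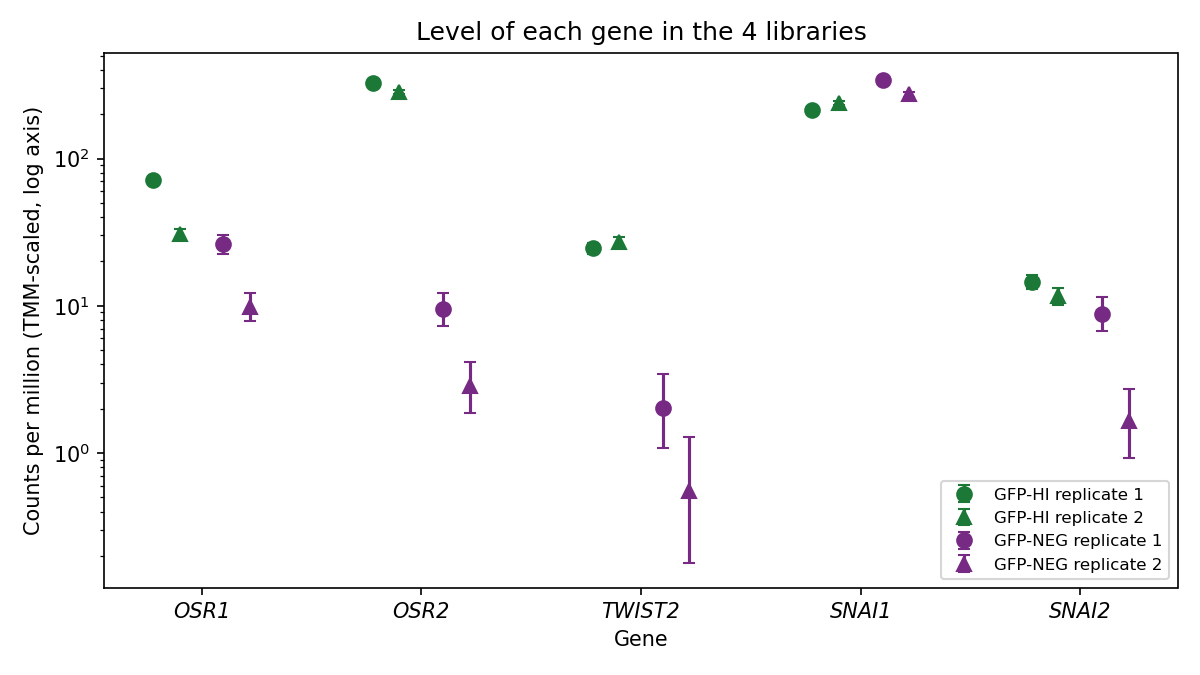
Level of OSR1, OSR2, TWIST2, SNAI1 and SNAI2 in each library, in CPM on a log axis; green marks GFP-HI, purple GFP-NEG, circles replicate 1, triangles replicate 2, and bars the 95% Poisson interval for counting error only. OSR2 stands at 282 to 326 in GFP-HI against 2.85 to 9.47 in GFP-NEG, while SNAI1 stays between 212 and 342 throughout.

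Within replicate 1, and again within replicate 2, 4 of the 5 genes were higher in GFP-HI, where 44.1% and 42.8% of tested genes were. The groups were fully apart for all 5 genes with TMM scaling, 4 with GFP-HI above (27.7% of tested genes) and SNAI1 with GFP-HI below (42% of tested genes). By library size alone the OSR1 groups overlapped. With TMM scaling all 5 were higher in GFP-NEG replicate 1 than in GFP-NEG replicate 2, where 44.8% of tested genes were, and by library size alone 4 were, SNAI1 not among them (30.2% of tested genes). With TMM scaling the fibroblast marker sum was 2.91 times as high in GFP-NEG replicate 1 as in replicate 2. The part of those fibroblast transcripts in the GFP-NEG levels was not tested. Between the GFP-HI libraries 3 of the 5 were higher in replicate 1, where 45.5% of tested genes were, and by library size alone 4 were, TWIST2 being added (51.1% of tested genes). In the authors' deposited table the log2 fold changes are 5.64 for OSR2, 4.37 for TWIST2, 1.52 for OSR1, 1.33 for SNAI2 and -0.46 for SNAI1.

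The balance within each family does not depend on how libraries are scaled, because both genes are read from the same library. OSR2 made up 81.9% of the OSR1 and OSR2 counts in GFP-HI replicate 1 (exact binomial 95% interval 81.1 to 82.7%) and 90.1% in replicate 2 (89.4 to 90.9%). In GFP-NEG its share was 26.6% (21.0 to 32.9%) and 22.4% (15.2 to 31.1%). The family was thus counted mostly as OSR2 in both GFP-HI libraries and mostly as OSR1 in both GFP-NEG libraries, and the shares are of counts, not corrected for transcript length. SNAI1 made up most SNAI1 and SNAI2 counts everywhere, at 93.6% and 95.3% in GFP-HI against 97.5% and 99.4% in GFP-NEG. These intervals cover counting error only.

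**Figure D2:**
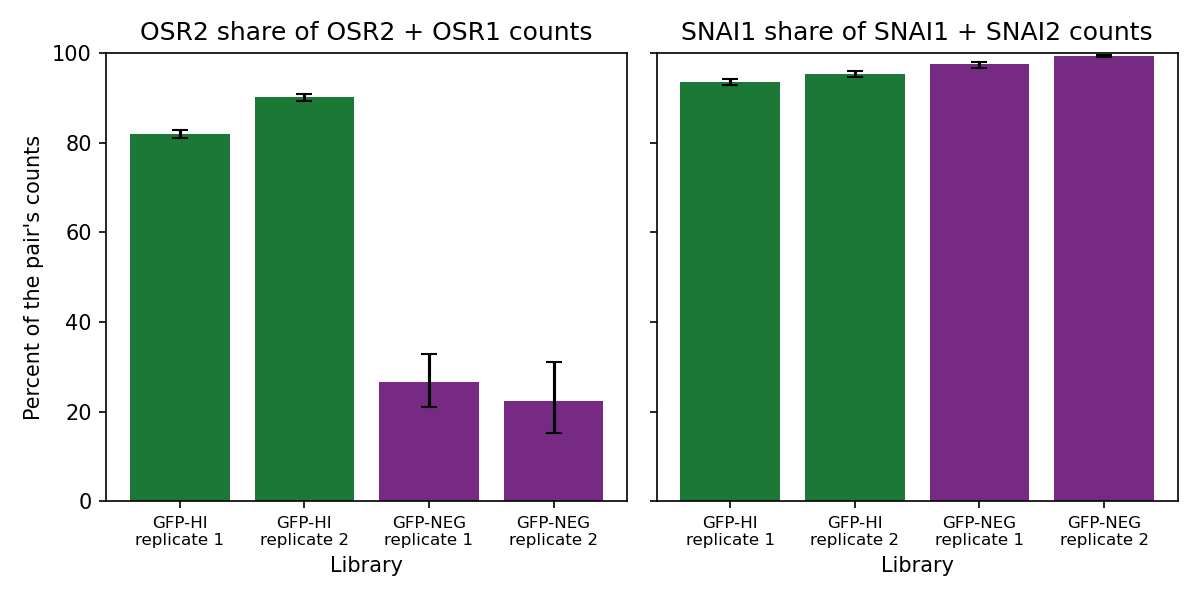
Share of OSR2 in the OSR1 and OSR2 counts (left) and of SNAI1 in the SNAI1 and SNAI2 counts (right), in percent, for each library, with exact binomial 95% intervals. The OSR2 share is 81.9 and 90.1% in GFP-HI against 26.6 and 22.4% in GFP-NEG, while the SNAI1 share is 93.6% or more in all 4 libraries.

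Each gene was also set against the 6 fibroblast markers (PDGFRA, COL1A1, COL1A2, LUM, DCN and FBLN1) within a replicate, a ratio chosen after the values had been seen and likewise free of library scaling. Relative to each of the 6 markers, OSR2 was higher in GFP-HI in both replicates, 12 of 12 ratios, from 1.11 to 4.59 on the log2 scale. Per 100 PDGFRA counts there were 39.7 and 50.2 OSR2 counts in GFP-HI against 9.74 and 12.6 in GFP-NEG, a log2 difference of 2.03 and 2.00. TWIST2 was higher in 11 of 12 ratios, from -0.15 to 3.58, the exception being FBLN1 in replicate 1. OSR1 was higher in 1 of 12 (-3.88 to 0.16) and SNAI2 in 1 of 12 (-3.04 to 0.78), so that both were mostly lower per fibroblast marker transcript in GFP-HI, in contrast to their higher CPM. SNAI1 was lower in all 12 ratios, from -5.72 to -1.99. These counts largely restate the fold changes of the comparison that guided the choice of genes. OSR2 had a higher log2 fold change than each of the 6 markers, and TWIST2 than each except FBLN1. OSR1, SNAI1 and SNAI2 had lower ones than all 6. The 12 ratios of a gene share its 2 within-replicate changes, so they are not 12 separate observations and nothing is read from their number.

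**Figure D3:**
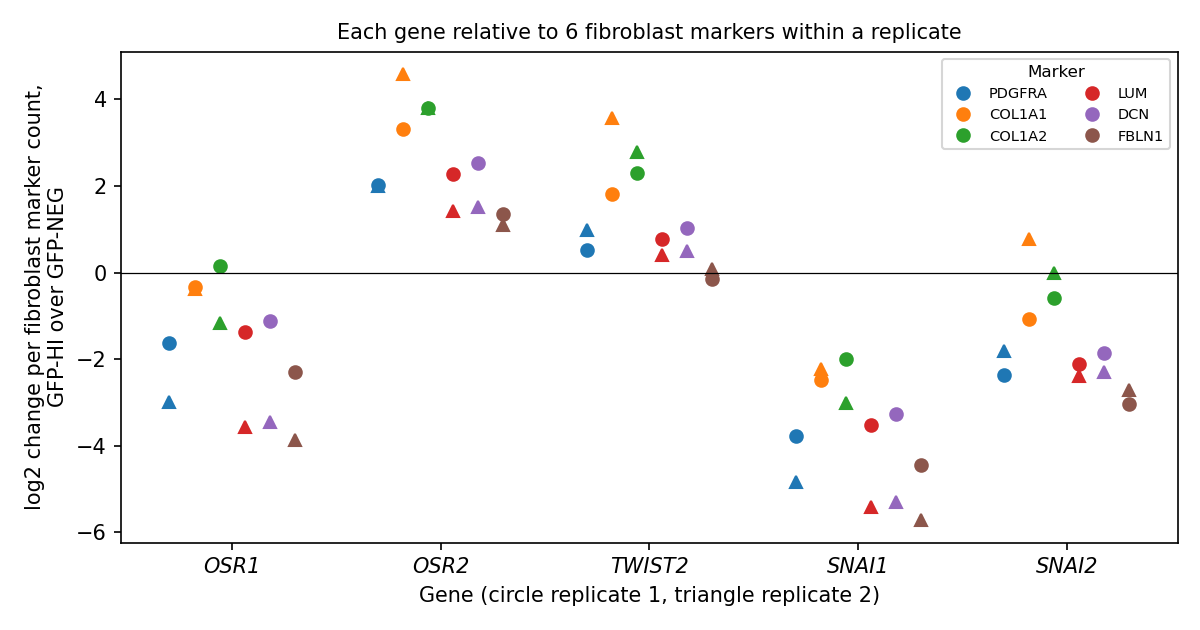
log2 change, GFP-HI over GFP-NEG, of each gene's counts per count of 1 of 6 fibroblast markers (colours), for replicate 1 (circles) and replicate 2 (triangles). All OSR2 points lie above 0, at 1.11 or more, and all SNAI1 points lie below it, at -1.99 or less.

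The genes whose pattern over the 4 libraries was closest to each member were found by Euclidean distance in centred log2(CPM + 1), among 9242 candidate genes with a symbol and a mean of at least 10 CPM. For OSR2 these were LGR5 itself (distance 0.875), HMCN2, which encodes a hemicentin of the extracellular matrix (0.889), and FBLN1, the matrix protein fibulin 1 (0.990). LGR5 was at 146 and 152 CPM in GFP-HI against 1.55 and 0.767 in GFP-NEG. TWIST2 was closest to TPBG, a membrane glycoprotein also called 5T4 (0.157), PTCH1, the Hedgehog receptor (0.159), and PLA2R1, a phospholipase A2 receptor (0.375). PTCH1 stood at 211 and 215 CPM in GFP-HI and 23.4 and 12.9 CPM in GFP-NEG, with the same close GFP-HI replicates as TWIST2. OSR1 was closest to GALNT10, an enzyme that starts O-glycosylation (0.105), and MRGPRF, an orphan receptor (0.176). Both shared its higher level in replicate 1 of both groups, as with GALNT10 at 66.5 and 30.9 CPM in GFP-HI against 24.2 and 8.88 in GFP-NEG. SNAI1 was closest to CCDC91 (0.0516), SGMS1, a sphingomyelin synthase (0.0672), and PCF11, a factor of mRNA 3′ end cleavage (0.0691). SNAI2 was under the mean level asked for. Adding 1 CPM before the log narrows the differences of genes at low CPM, so a small distance need not mean an equal fold change. The log2 fold change was 3.55 for PTCH1 against 4.37 for TWIST2, and 7.03 for LGR5 against 5.64 for OSR2. The patterns rest on 4 libraries that share depth and sort, and the distances are a description.

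In the RefSeq annotation of Sscrofa11.1 none of the 6 genes overlaps another annotated gene. OSR2 lies between VPS13B and STK3. VPS13B rose in GFP-HI by 1.78 on the log2 scale (SE 0.60, adjusted p of 0.0109, edgeR), and STK3 had a value of 0.98 (adjusted p of 0.135). The VPS13B call was lost without GFP-NEG replicate 1 (1.89) and without GFP-NEG replicate 2 (1.68). Of the neighbours of TWIST2, HDAC4 rose by 1.80 (SE 0.63, adjusted p of 0.0143, edgeR), and ASB1 was at 0.71 (adjusted p of 0.334). HDAC4 lost its call without GFP-HI replicate 1 (1.51), without GFP-NEG replicate 2 (1.54), with upper-quartile scaling (1.4954) and by library size alone (1.41). The neighbours of SNAI1, RNF114 and UBE2V1, were at 0.02 and -0.11 (adjusted p of 0.984 and 0.899), and the sign of RNF114 changed with the scaling, to -0.38 by library size alone. HDAC9, beside TWIST1, was at -1.29 (SE 0.54, adjusted p of 0.0485, edgeR), a call that each left-out library ended, with values from -1.49 to -1.01, as did DESeq2 (-1.33), no filter on low counts (-1.23) and a filter of at least 10 counts in 2 libraries (-1.34). SNTG1 and EFCAB1 beside SNAI2 were too low to be tested, and these neighbours were chosen after the other values had been seen.

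Partners of the TWIST proteins differed by gene (edgeR, Benjamini-Hochberg adjusted over all 19682 genes). Of the 7 E protein and ID protein genes, 2 rose, 1 fell and 4 did not pass. That is 28.6% higher and 14.3% lower, where 8.35% and 27.6% of all tested genes were. The median log2 fold change was 0.26 against -0.25 over all tested genes. That median changed sign to -0.09 by library size alone, and ran from -0.37 without GFP-NEG replicate 2 to 1.39 without GFP-NEG replicate 1 (with GFP-HI replicate 1 or 2 left out it was -0.31 or -0.11). TCF4, an E protein, was at 475 and 647 CPM in GFP-HI against 166 and 59.5 in GFP-NEG, and rose by 2.32 (SE 0.71, adjusted p of 0.00468). TCF12, another E protein, was at 544 and 542 CPM against 192 and 82.3, and rose by 1.99 (SE 0.70, adjusted p of 0.0165). The E protein TCF3 was at 19.5 and 16.6 CPM against 15.5 and 27.7, with overlapping groups (adjusted p of 0.754). ID2, an inhibitor that takes E proteins out of DNA-binding pairs, was at 232 and 120 CPM in GFP-HI against 796 and 829 in GFP-NEG, and fell by 2.20 (SE 0.76, adjusted p of 0.0134). ID1, ID3 and ID4 had log2 fold changes of 0.43, 0.26 and -1.40 with overlapping groups, and ID3 was at -0.09 by library size alone. Without GFP-NEG replicate 2 the calls of TCF4 (1.76), TCF12 (1.502) and ID2 (-2.17) were lost, and without GFP-HI replicate 2 those of TCF12 (2.01) and ID2 (-1.77).

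Other transcription factors of mesenchyme and EMT changed in both directions. Of 16 genes listed, all had a row and 10 were tested, of which 4 rose, 2 fell and 4 did not pass, with a median of 1.36. The shares were 40% higher and 20% lower, against 8.35% and 27.6% of all tested genes. ZEB1, a zinc finger repressor that binds the same E-boxes as the SNAI proteins, was at 196 and 228 CPM in GFP-HI against 53.3 and 31.8 in GFP-NEG, and rose by 2.32 (SE 0.60, adjusted p of 0.000608, edgeR). ZEB2 was at 256 and 255 CPM against 175 and 84.3, which did not pass (log2 fold change 0.98, adjusted p of 0.219). PRRX1, a homeobox factor of connective tissue, was at 81.0 and 136 CPM against 31.7 and 9.43 and rose by 2.40 (adjusted p of 0.000137). MEOX2, a homeobox factor, rose by 2.16 (adjusted p of 0.0020), and TCF21, a bHLH factor of lung mesenchyme, by 1.74 (adjusted p of 0.0469). TCF21 was at 496 and 778 CPM in GFP-HI against 365 and 17.5 in GFP-NEG. It was called with RLE scaling, the replicate block and without GFP-NEG replicate 1 (5.18), and under none of the other 9 alternatives, including DESeq2 (1.72), library size alone (1.45) and without GFP-NEG replicate 2 (0.80), GFP-HI replicate 1 (2.07) or GFP-HI replicate 2 (1.38). MEOX1, related to MEOX2, was at 0.408 and 0.248 CPM against 5.28 and 4.82, and fell by 3.91 (adjusted p of 0.0073). SNAI3, the third SNAI gene, had 0 counts in both GFP-HI libraries and 10 and 33 in GFP-NEG, at least 10.4-fold lower taking a floor of 3 counts per library for GFP-HI and the smaller of its GFP-NEG levels (the list's median is 1.36 with SNAI3 at that bound too). Without GFP-NEG replicate 2 none of the 4 higher calls was left, with ZEB1 at 1.99, PRRX1 at 1.78 and MEOX2 at 1.32, and SNAI3 was not called. MEOX2 also lost its call without GFP-HI replicate 2 (1.59), and MEOX1 without GFP-HI replicate 2 (-3.57) or GFP-NEG replicate 1 (-3.85).

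Transcripts of proteins through which SNAI and TWIST act, or which mark them for breakdown, did not pass the threshold. Of 21 listed genes 19 were tested, and 0 were called by edgeR and 0 by DESeq2. Over all tested genes edgeR called 8.35% higher and 27.6% lower. The list's median was 0.28, or -0.05 with upper-quartile scaling and -0.14 by library size alone. At an unadjusted p under 0.05, edgeR had 4 higher and 1 lower and DESeq2 1 higher and 1 lower. With the replicate block, LOXL2, a lysyl oxidase-like enzyme, and PRKD1, a kinase, were called higher at 1.40 and 1.96. Without GFP-NEG replicate 1, LOXL2 (2.43), LOXL3 (1.98) and PRKD1 (3.38) were called higher and SUV39H1, a histone methyltransferase, lower (-2.47). SUV39H1 was also called lower by library size alone (-2.36), with upper-quartile scaling (-2.22) and with thinned GFP-HI libraries (-2.27).

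Epithelial genes known to be repressed by these factors were called lower at a rate near that of all genes, 31.2% of the list against 27.6% of all tested genes, so the count is not a result about the list. Of 20 listed genes 16 were tested, of which 5 fell in GFP-HI, 11 did not pass and 0 rose (edgeR; also 0 by DESeq2 and 0 at an unadjusted p under 0.05), with a median of -1.47. CDH1 was at 16.4 and 4.36 CPM in GFP-HI against 39.4 and 27.7 in GFP-NEG, and fell by 1.69 (SE 0.56, adjusted p of 0.00953, edgeR). CLDN4, a tight junction claudin, fell by 2.12 (adjusted p of 0.00155), CLDN3 by 2.16 (adjusted p of 0.0424) and OCLN, which encodes occludin, by 1.88 (adjusted p of 0.00951). OVOL1, a zinc finger factor of epithelia that opposes EMT, had 2 and 4 counts in GFP-HI against 11 and 42 in GFP-NEG, and fell by 4.39 (adjusted p of 0.00736). CDH1, KRT8, KRT18 and EPCAM are also on the epithelial marker list, so that fewer epithelial cells and repression within cells cannot be told apart here. Without GFP-HI replicate 2 only OVOL1 of these 5 was still called, with CDH1 at -1.01, CLDN3 at -1.40, CLDN4 at -1.72 and OCLN at -1.67. CDH1 and CLDN3 also lost their calls without GFP-NEG replicate 1 (-1.42 and -2.10) and GFP-NEG replicate 2 (-1.93 and -2.22). OCLN also lost its call without GFP-HI replicate 1 (-2.04) and GFP-NEG replicate 1 (-1.26), and OVOL1 without GFP-HI replicate 1 (-3.85) and GFP-NEG replicate 2 (-3.50).

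Genes of the mesenchymal state encode matrix, surface and cytoskeletal proteins. All 14 listed genes were tested, of which 6 rose, 1 fell and 7 did not pass, with a median of 1.45. The shares were 42.9% higher and 7.14% lower, against 8.35% and 27.6% of all tested genes. TNC, the matrix protein tenascin C, was at 2349 and 1544 CPM in GFP-HI against 495 and 63.8 in GFP-NEG, and rose by 2.80 (SE 0.93, adjusted p of 0.00951, edgeR). MMP2, a matrix metalloproteinase, rose by 2.72 (adjusted p of 0.00177), POSTN, the matrix protein periostin, by 2.64 (adjusted p of 0.000874) and PDPN, the surface protein podoplanin, by 2.33 (adjusted p of 0.000179). VIM, FN1 and SPARC were abundant in both groups and did not pass in edgeR. Their values were 1.21, 1.45 and 1.83, with both GFP-HI libraries above both GFP-NEG libraries. SPARC was called higher by DESeq2. S100A4, a calcium-binding protein, went the other way, at 3.17 and 21.6 CPM against 45.5 and 106, and fell by 2.61 (adjusted p of 3.38e-05). S100A4 is also expressed by leukocytes, and the immune marker sum was 3910 to 6230 CPM in GFP-NEG against 999 to 1490 in GFP-HI; its part in this result was not tested. Without GFP-NEG replicate 2 none of the 7 calls was left, with TNC at 1.98, MMP2 at 2.01, POSTN at 1.81, PDPN at 1.92 and S100A4 at -1.88. TNC also lost its call without GFP-HI replicate 1 (2.51) and GFP-HI replicate 2 (3.08).

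Foregut mesoderm genes that act with or downstream of OSR in lung formation held the largest increases of the lists. Of 14 genes tested, 7 rose, 1 fell and 6 did not pass, with a median of 1.40. The shares were 50% higher and 7.14% lower, against 8.35% and 27.6% of all tested genes. BMP4, a secreted bone morphogenetic protein, was at 305 and 598 CPM in GFP-HI against 38.0 and 13.8 in GFP-NEG, and rose by 4.12 (SE 0.72, adjusted p of 6.66e-07, edgeR). GLI1, a transcription factor and target of Hedgehog signalling, was at 42.8 and 33.7 CPM against 1.86 and 3.51, and rose by 3.81 (adjusted p of 1.4e-07). PTCH1 rose by 3.55 (adjusted p of 7.09e-07) and FGF10, a growth factor for the lung bud epithelium, by 3.41 (adjusted p of 2.85e-07). FOXF1, TBX4 and TBX5, factors of lung mesenchyme, rose by 2.06, 1.77 and 1.67 (adjusted p of 0.00101, 0.00393 and 0.00934). Without GFP-HI replicate 1 (1.43, 1.73 and 1.60) and without GFP-NEG replicate 2 (1.371, 1.01 and 0.82) these 3 lost their calls, which left 4 genes called higher. TBX5 was also not called by DESeq2 (1.65) or without GFP-HI replicate 2 (1.78). The median of the list ran from 0.91 without GFP-NEG replicate 2 to 3.32 without GFP-NEG replicate 1. GATA4 had 4 and 0 counts in GFP-HI against 11 and 17 in GFP-NEG and fell by 4.15 (adjusted p of 0.0095), a call lost with the replicate block (-4.52), with no filter on low counts (-4.10) and without GFP-NEG replicate 1 (-4.23), GFP-HI replicate 2 (-3.20) or GFP-NEG replicate 2 (-4.10). WNT2 and WNT2B, lung-specifying Wnt ligands, were at 0.78 and -1.17 and did not pass (adjusted p of 0.463 and 0.229). RDH10, RARB and GATA6 were at 1.14, 0.71 and -0.14 and did not pass either. ALDH1A2 was at -2.29 with the groups apart and did not pass in edgeR (adjusted p of 0.0746). It was called lower by DESeq2 and with the replicate block. BMP4, GLI1, PTCH1 and FGF10 were called with each library left out in turn, with log2 fold changes of at least 2.88.

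Inducers of SNAI and TWIST transcription were divided among the 3 TGF-beta ligands. Of 17 listed genes 15 were tested, of which 3 rose, 1 fell and 11 did not pass, with a median of 0.44. The shares were 20% higher and 6.67% lower, against 8.35% and 27.6% of all tested genes. TGFB2 was at 83.1 and 96.4 CPM in GFP-HI against 25.9 and 11.8 in GFP-NEG, and rose by 2.25 (SE 0.54, adjusted p of 0.000221, edgeR). TGFB3 was at 333 and 399 CPM against 119 and 30.8, and rose by 2.29 (adjusted p of 0.00229). TGFB1 was at 11.05 and 12.2 CPM against 24.5 and 63.3, and fell by 1.92 (adjusted p of 0.00206). YAP1, a co-activator of the Hippo pathway, had overlapping groups and a value of 1.47 (log2, adjusted p of 0.0298, edgeR), which was not called by DESeq2 (1.45), by library size alone (1.22), with upper-quartile scaling (1.28), with a filter of at least 10 counts in 2 libraries (1.42), with thinned GFP-HI libraries (1.38) or without GFP-HI replicate 1 (0.91), GFP-HI replicate 2 (1.91) or GFP-NEG replicate 2 (0.60), and which was 3.98 without GFP-NEG replicate 1. Without GFP-NEG replicate 2 the calls of TGFB2 (1.79), TGFB3 (1.62) and TGFB1 (-1.08) were lost as well.

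Genes induced by tissue dissociation include early-response factors. Of 14 tested genes 8 fell, 6 did not pass and 0 rose (edgeR), with a median of -2.04. The share called lower was 57.1%, where 27.6% of all tested genes were. DESeq2 called 10 lower and 0 higher, and 0 were higher at an unadjusted p under 0.05 in edgeR or DESeq2. NR4A1, an early-response nuclear receptor, was at 45.9 and 22.5 CPM in GFP-HI against 266 and 389 in GFP-NEG, and fell by 3.26 (SE 0.66, adjusted p of 2.12e-05, edgeR). ATF3, a stress factor, fell by 3.13 (adjusted p of 0.000228), ZFP36, an mRNA decay factor, by 2.63 (adjusted p of 0.0189), the phosphatase DUSP1 by 2.43 (adjusted p of 0.0214) and IER3 by 2.18 (adjusted p of 0.00352). SNAI1 was the 1 member on the same side as this list, and the part of the dissociation response in its level was not tested. Without GFP-HI replicate 2 only 1 of the 8 calls, NR4A1, was left, with ATF3 at -2.45, ZFP36 at -2.43, DUSP1 at -1.91 and IER3 at -1.66. ZFP36 also lost its call without GFP-HI replicate 1 (-2.73) and GFP-NEG replicate 2 (-2.44), and DUSP1 (-2.03) and IER3 (-1.85) without GFP-NEG replicate 1.

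**Figure D4:**
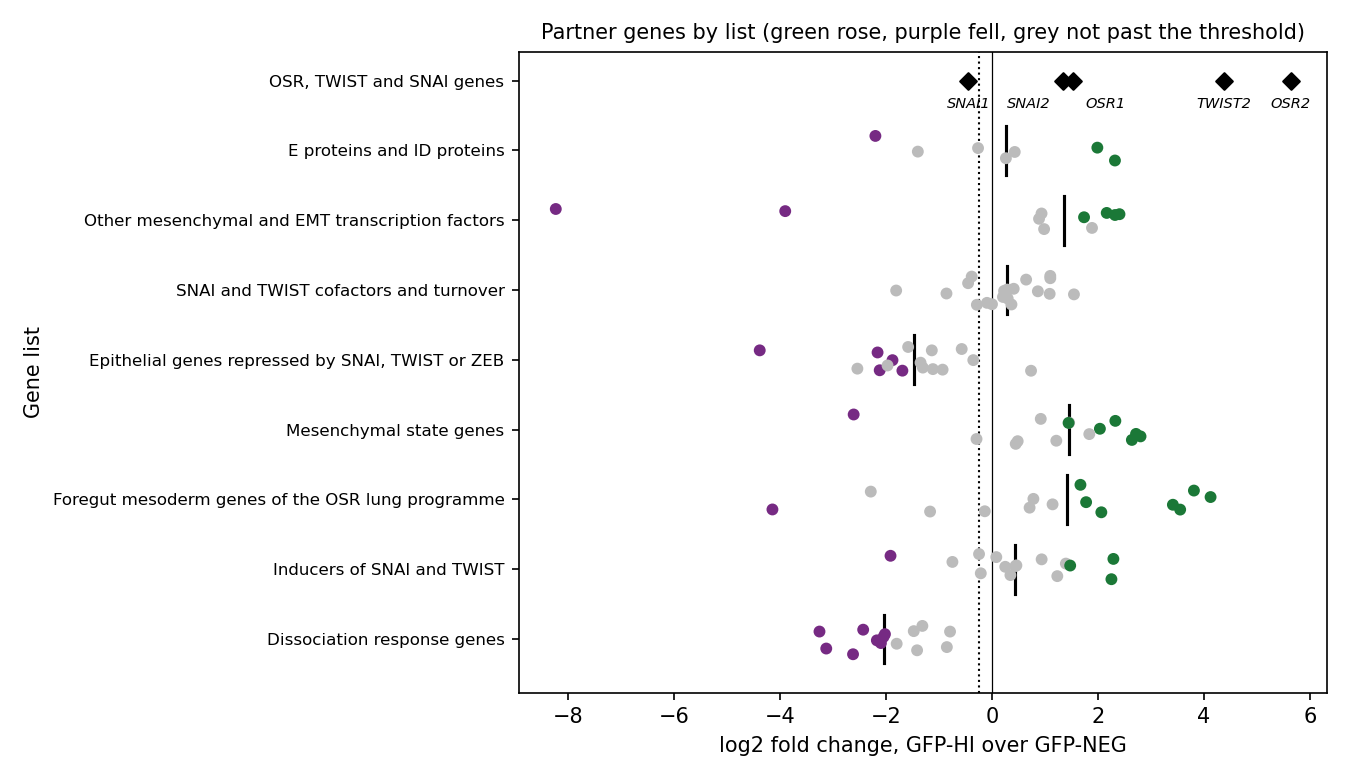
log2 fold change, GFP-HI over GFP-NEG, of the 5 measured members (black diamonds, no test) and of each tested partner gene, 1 point per gene and 1 row per list; a vertical bar marks the list's median and the dotted line the median of all tested genes (-0.25). The mesenchymal and foregut lists have medians of 1.36 to 1.45, and the epithelial and dissociation lists -1.47 and -2.04; SNAI3, at the far left, has 0 counts in GFP-HI.

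The fold changes of the members kept their sign under all 12 alternatives, which comprised other scaling, other filters on low counts, DESeq2, thinned GFP-HI libraries, the replicate block and each library left out. OSR2 ranged from 5.00 to 6.73 and TWIST2 from 3.67 to 5.54 with each library left out in turn, the higher ends without GFP-NEG replicate 1 and the lower ends without GFP-NEG replicate 2. SNAI1 ranged from -0.60 to -0.28 in the same fits.

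**Figure D5:**
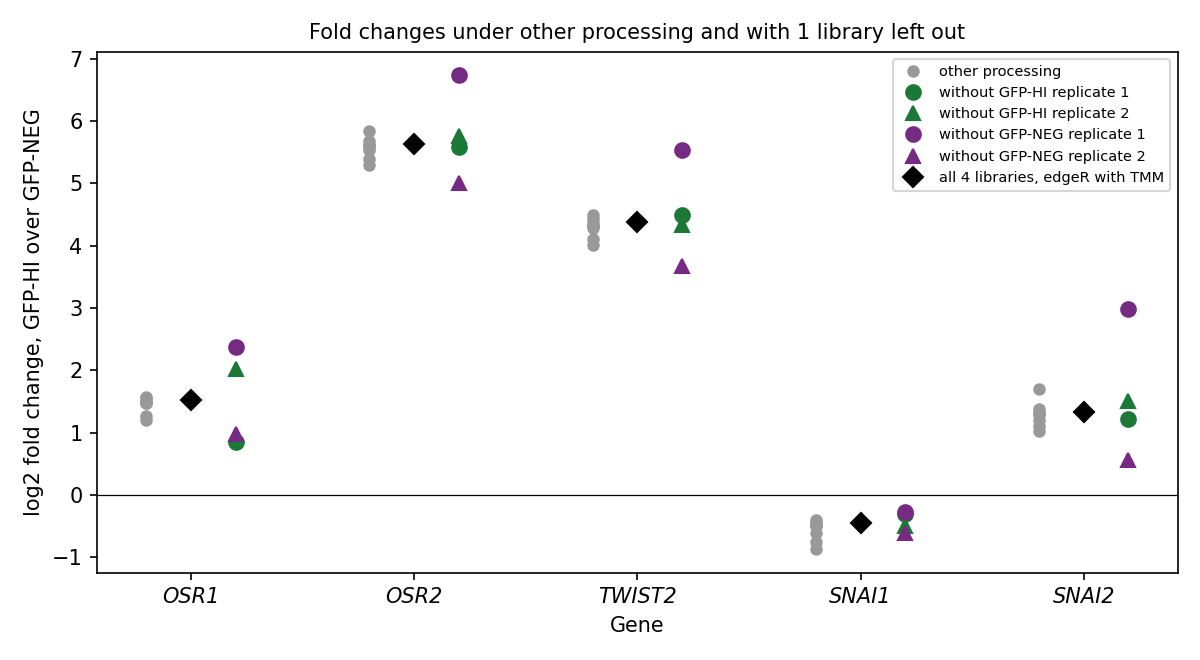
log2 fold change of each member with all 4 libraries (black diamonds), under other processing (grey) and with 1 library left out (green or purple, named in the legend). OSR2 stays at 5.00 or above and TWIST2 at 3.67 or above, while SNAI2 spans 0.56 to 2.99.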

How the data were processed

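RNA sequencing of 4 sorted lung libraries was analysed, 2 in GFP-HI and 2 in GFP-NEG, grouped by title. The authors deposited gene counts, as whole numbers, for every library and a comparison table whose counts are identical. The submitters' processing notes name featureCounts, Subread 1.5.2 and DESeq2 1.37.6. Aligner and strand setting are not given in the sources used here, so antisense reads cannot be told apart. A build is mentioned only in the annotation label within the name of the authors' comparison table, and no coordinates are printed. The log2 fold changes of that table are the authors' own, per the file headers, and 4 of its per-sample columns were not used.

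Counts were tested with edgeR 4.0.16 (quasi-likelihood F test, TMM, filterByExpr, R 4.3.3) over 19682 genes, with group as the only term and Benjamini-Hochberg adjustment. The standard error is the fold change divided by the square root of F. CPM are counts relative to the TMM-scaled library size, so 1 count is worth 0.0453 to 0.155 CPM. The prior degrees of freedom were infinite, so the spread used for a gene was estimated across genes and its own scatter carried no weight. P-values and standard errors therefore set a gene's difference against that shared spread between these libraries only, not against the gene's own replicates. DESeq2 1.42.0 and 11 other settings were alternatives. The procedure was tested on simulated data.

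The members and lists were chosen with earlier results of these data known. Of 834 identifiers renamed with the gene name table, TWIST2 is 1. Named are the members, all E and ID protein genes, ZEB1, ZEB2 and PRRX1, up to 5 genes per list with the largest called change, and 3 nearest patterns per member (1 of those for OSR1, and 1 marker list, are not reported here); others named were chosen after their values were seen. Headings of the comparison table name pig 1 and pig 2 in each fraction, so the replicate number was used as a block in 1 alternative. The deviations of same-numbered libraries from their group means correlated over genes (r = 0.190). With 2 libraries per group the other pairing gives the same size with the opposite sign. This value therefore cannot show that same-numbered libraries share an animal.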

Additional observations from a re-analysis of the deposited data

How the results depend on the processing

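The 4 libraries limit precision, and GFP-NEG depth leaves TWIST2 there at 5 and 13 counts. The median over tested genes, -0.25 on the log2 scale, became -0.58 when scaled by upper quartile and -0.68 without TMM factors. Genes higher in GFP-HI numbered 1643, but 1083 with upper-quartile scaling, 888 by library size alone and 951 with at least 10 counts in 2 libraries. Genes lower numbered 5433, but 3182 with that filter and 3616 after thinning, where fewer genes were tested.

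With 1 library left out, the lone library is assumed to vary like the other group. Higher genes then ranged from 204 to 1539 and lower genes from 1373 to 4680, the low ends without GFP-NEG replicate 2. Partner list genes ranged from 4 to 29 higher (22 with all libraries) and from 5 to 18 lower (19 with all libraries). OSR1 ranged from 0.84 to 2.38, and SNAI2 from 0.56 to 2.99. OSR1 was no longer called by library size alone (1.20), with at least 10 counts in 2 libraries (1.47) or with DESeq2 (1.49); the cause was not tested. SNAI2 was called with the replicate block (1.70), which changed no other call of a member; among named partners it ended that of GATA4.

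Signs changed for 5 named genes. ID1 was at -0.78 without GFP-HI replicate 1, -0.42 without GFP-NEG replicate 2 and up to 2.73 (called) without GFP-NEG replicate 1. ID3 was at -0.0927 by library size alone, -0.11 without GFP-HI replicate 2 -0.37 without GFP-NEG replicate 2 and 1.39 without GFP-NEG replicate 1. TCF3 was at 0.21 without GFP-NEG replicate 2 and -0.62 without GFP-NEG replicate 1, and UBE2V1 at 0.20 without GFP-HI replicate 1. RNF114 was at -0.0164 (RLE scaling), -0.0163 (DESeq2), -0.0344 (at least 10 counts in 2 libraries), -0.15 (thinned), -0.28 (upper quartile), -0.38 (library size alone) -0.23 (without GFP-NEG replicate 2) and 0.32 (without GFP-NEG replicate 1). With at least 10 counts in 2 libraries the calls of CDH1 (-1.75), CLDN3 (-2.22) and MEOX2 (2.11) were lost. Of 44 named partner and neighbour genes, 9 kept direction and call status under each alternative run. BMP4, FGF10, GLI1, PTCH1 and NR4A1 stayed called, and ASB1, STK3, ZEB2 and ID4 stayed uncalled. The 44 leave out genes named for other reasons, such as FOXF1, TBX4, TBX5 and TCF21, which lost calls as given above.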
